A study of Arabidopsis thaliana with 8 samples.

Results

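The comparison described here asked which transcripts of Arabidopsis thaliana rosette leaves respond differently to the flu mutation when the plants also carry extra thylakoid ascorbate peroxidase. The quantity is an interaction: the difference between flu over-tAPX 14-2 (flu tAPX) and over-tAPX 14-2 (tAPX), minus the difference between flu and wild type (WT Col), on the scale log2(signal + 16). All 8 Affymetrix ATH1 arrays of the series entered it, 2 for each of the 4 lines by their titles, and 14947 of the 22810 probe sets on the array were tested. A value above 0 means that the response to flu went further up, or less far down, with the transgene. The WT was Columbia, flu carried the insertion allele SAIL_136_E05, tAPX was the overexpressing line 14/2, and flu tAPX joined that allele with that line. Plants of every line were 3 weeks old, had grown in continuous light, then spent 8 h in the dark and were harvested after 2 h of light. The experiment was run 6 times with at least 10 plants for each line. Every array held RNA pooled from 3 of the runs, so the spread between the arrays of a line is that of pools. The transgene was studied in 1 line with a promoter not given in the sources used here, and all arrays stem from the light period. Some free-text descriptions give another accession, genotype or harvest time than the titles, source names and protocols, which were followed.

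FLU is a plastid protein that holds back the synthesis of chlorophyll precursors in the dark. Without it protochlorophyllide accumulates, and when light returns this pigment passes energy to oxygen and forms singlet oxygen inside the plastid. Thylakoid ascorbate peroxidase uses ascorbate to remove hydrogen peroxide, a different oxygen species made at the same membrane, so the 4 lines allow the response to flu to be read with and without an added sink for peroxide.

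As a check of the labels, TAPX, which encodes the thylakoid enzyme, was read first. Its signal was 2558 and 3115 in WT, 1656 and 1729 in flu, 22959.7 and 22043 in tAPX and 22703 and 23222 in flu tAPX, so both overexpressing lines stood far above both others. A control probe set of the array named U12639 split the arrays in the same way, with signals of 10.5 and 49.7 in WT, 29.1 and 31.2 in flu, 4514 and 5269.5 in tAPX and 6069 and 7712 in flu tAPX. The response of TAPX to flu was -0.73 ± 0.15 without and 0.03 ± 0.15 with the transgene, an interaction of 0.76 ± 0.21. In the overexpressing lines native and transgene transcripts cannot be told apart. TAPX was the 1 probe set that passed in tAPX against WT and the 1 that passed in flu tAPX against flu (0.00669% each). SAPX, the stromal ascorbate peroxidase, had responses of -0.32 ± 0.18 and -0.19 ± 0.18 and an interaction of 0.13 ± 0.25, within its standard error (SE) of 0, and it turned to -0.07 without flu tAPX replicate 2 and to -0.56 when the arrays were scaled on spiked poly-A controls. The median signal lay between 153.1 and 165.5 on the 8 arrays.

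No probe set passed the test of the interaction. With limma, 0 of 14947 (0%) had a Benjamini-Hochberg adjusted p under 0.05, and the lowest adjusted p was 0.719. At an unadjusted p under 0.05 there were 1031 (6.9% of those tested, where 5% is the level of the test itself), 484 above 0 (3.24%) and 547 below (3.66%). The count at an adjusted p under 0.05 became 185, of which 6 were above 0, without flu tAPX replicate 1, a fit with a single flu tAPX array assumed to vary like the other lines. It became 461, with 1 above 0, when arrays were scaled on spiked poly-A controls, a setting described further on. The interaction sums the errors of 4 line means, and its median SE was 0.35, against 0.25 for flu against WT. The genes named below are therefore described by their values, with adjusted limma p-values of 0.719 or above, and for none of them was a difference between the responses established. The p-values measure the spread between arrays of pooled RNA.

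The responses to flu in the presence and absence of the transgene share no array, and they were much alike. Across the 14947 probe sets their Pearson correlation was 0.857, a description in which probe sets are not independent replicates. In flu against WT 3570 probe sets passed (23.9%), and in flu tAPX against tAPX 5014 (33.5%). Of these, 2968 passed in both in the same direction, 601 in flu against WT alone and 2045 in flu tAPX against tAPX alone. Without WT replicate 1 or 2 or flu replicate 1 or 2, the first count was 1962, 1852, 2275 or 2285, and without tAPX replicate 1 or 2 the second was 2942 or 2825. Passing in 1 response alone is not a difference between them. In the group of 2045, 447 (21.9%) had an unadjusted p under 0.05 for the interaction, in the group of 601 there were 85 (14.1%), and none passed after adjustment. These groups were formed on the same arrays that give the interaction, so the shares are descriptions. A single probe set passed in both with opposite signs, that of AT3G21000. Signals of this gene were dim, 99.3 and 73.3 in WT, 6.87 and 8.60 in flu, 8.01 and 34.1 in tAPX and 81.9 and 134 in flu tAPX.

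**Figure D1:**
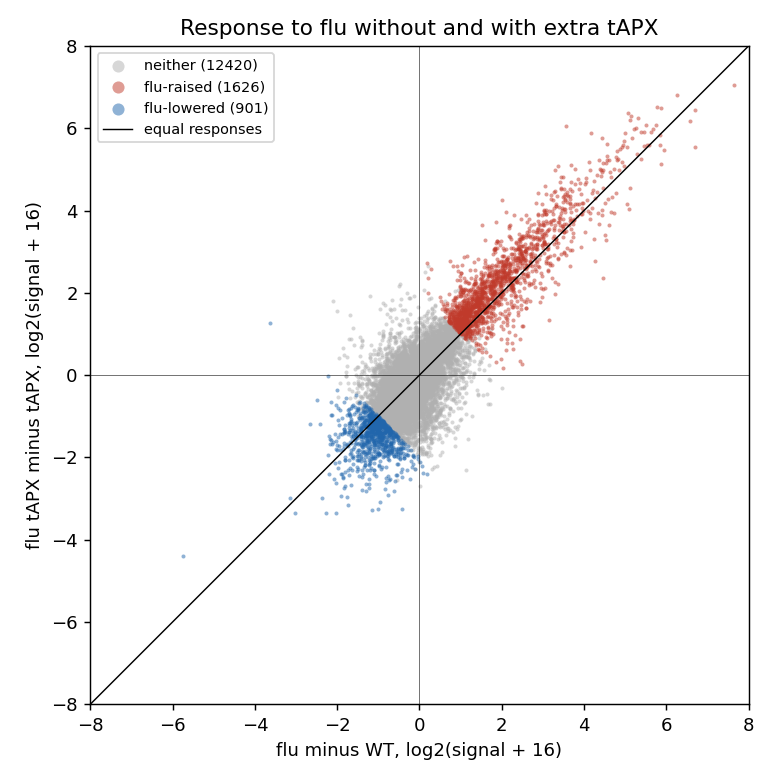
Each point is 1 of the 14947 probe sets, with its log2 change in flu against WT on the horizontal axis and in flu tAPX against tAPX on the vertical axis. Red points are the 1626 flu-raised and blue points the 901 flu-lowered probe sets, and the line marks equal responses. The points follow the line, and on the deposited scale more red points lie above it and more blue ones below it. With poly-A scaling the flu-raised median interaction turns from 0.34 to -0.32.

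To see how the interaction lies among flu-responsive transcripts, probe sets were picked by the mean of both responses, which in this balanced layout is uncorrelated with the interaction by construction, although both use the same arrays and variances. The mean response passed for 6621 probe sets (44.3%). At least a 2-fold mean change with an adjusted p under 0.05 gave 1626 flu-raised (10.9%) and 901 flu-lowered (6.03%) probe sets. The flu-raised class had a median response of 1.74 in flu against WT and 2.04 in flu tAPX against tAPX, both as log2 changes. Its median interaction was 0.34, and 1259 of its members (77.4%) were above 0, a share that was 21.9% when arrays were scaled on poly-A controls and the class was picked again. The flu-lowered class had median responses of -1.10 and -1.42, a median interaction of -0.32, and 665 of 901 (73.8%) below 0. Over all tested probe sets the median interaction was 0.06, with 55.9% above 0 and 44.1% below. On the scale as deposited, the median response of both classes was thus of larger size with the transgene. An unadjusted p under 0.05 was found for 189 flu-raised members above 0 and 13 below, and for 168 flu-lowered members below 0 and 9 above. Class members share arrays and respond together, so these counts do not measure independent events.

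The direction for flu-raised genes depended on how the arrays were scaled. Scaling each array on 27 poly-A spike-in controls shifts every interaction by the same amount, so that the median of all tested probe sets moved from 0.06 to -0.62. With the classes picked again under that scaling, the flu-raised median (1281 probe sets) turned to -0.32 and the flu-lowered median (2295 probe sets) became -0.92. Relative to all probe sets, the class medians were 0.28 and -0.38 as deposited and 0.31 and -0.30 with poly-A scaling. The mean log2 signal of the poly-A controls was 9.02 and 8.71 on the flu tAPX arrays and between 8.24 and 8.52 on the other 6. For 18 hybridisation controls it was 11.25 and 11.38 on the flu tAPX arrays and 10.81 to 11.22 on the others. The interaction computed on these control means was 0.69 for the poly-A and 0.62 for the hybridisation controls, and their part in the results was not tested. All interaction values below are on the deposited scale, where they give the position of a gene relative to the rest of its array. Any value above 0 but under 0.69 would be below 0 with poly-A scaling. A listed gene counted as measured if a tested probe set was paired with it alone, which held for 93 of 518 list genes. A gene without such a probe set is not thereby absent from the leaf, and the measured members need not represent a pathway. Counts of set members are to be read beside the shares over all tested probe sets. These were 55.9% above 0, 44.1% below 0 and 6.9% at an unadjusted p under 0.05.

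**Figure D2:**
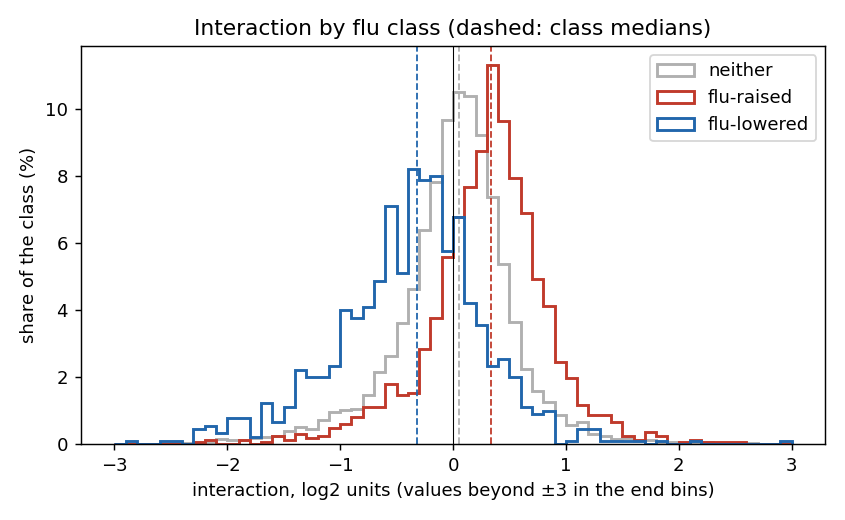
The horizontal axis is the interaction in log2 units and the vertical axis the share of each class in percent, for flu-raised (red), flu-lowered (blue) and the other probe sets (grey). Dashed lines mark the medians of 0.34, -0.32 and 0.05, and the distributions overlap. With poly-A scaling the flu-raised median is -0.32.

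The arrays themselves show where the difference lay. Averaged over the flu-raised class, the log2 level was 7.66 and 7.73 in WT, 7.66 and 7.60 in tAPX, 9.70 and 9.72 in flu, reaching 9.97 and 9.93 in flu tAPX. Both flu tAPX arrays thus stood above both flu arrays, whereas tAPX and WT nearly met. The mean interaction of the class was 0.30, with a standard deviation (SD) of 0.07 for an interaction formed from 1 array of each line. For the flu-lowered class the levels were 9.40 and 9.34 in WT, 9.43 and 9.45 in tAPX, 8.31 and 8.17 in flu, down to 8.02 and 7.84 in flu tAPX. Here too the flu and flu tAPX arrays did not overlap, while WT and tAPX differed by little. The mean interaction was -0.38, with an SD of 0.17 on the same basis. In medians, flu-raised probe sets had a log2 difference of 0.25 between flu tAPX and flu and of -0.10 between tAPX and WT, and flu-lowered ones of -0.30 and 0.03, beside 0.00 and -0.06 for all probe sets. With poly-A scaling the flu-raised median between flu tAPX and flu turned to -0.23 and that between tAPX and WT to 0.09. The correlation between the 2 flu tAPX arrays was 0.938, the lowest of the replicate pairs. It was 0.962 in WT, 0.962 in flu and 0.981 in tAPX. Flu tAPX replicate 1 correlated at 0.972 and 0.956 with flu replicates 1 and 2, and flu tAPX replicate 2 at 0.935 and 0.954. Leaving out each array in turn gave a flu-raised median between 0.27 and 0.41 and a flu-lowered one between -0.68 and -0.21. The lowest of these was without flu tAPX replicate 1. The classes were picked again in each of these fits. With an array missing the layout is unbalanced, so the mean response used for picking is no longer uncorrelated with the interaction. These ranges therefore also hold an effect of the picking.

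The median interaction also differed between probe sets with small and large responses. Flu-raised probe sets with a mean change of 2- to 4-fold (894) had a median interaction of 0.30, those of 4- to 8-fold (426) of 0.37, those of 8- to 16-fold (194) of 0.44 and those beyond 16-fold (112) of 0.50. The share above 0 was nearly level at 77.3%, 77.2%, 78.9% and 76.8%. In the brightest of 3 equal parts of the flu-raised class 88.7% were above 0, in the middle part 77.7% and in the dimmest 65.9%, while the medians were 0.36, 0.34 and 0.29. Among flu-lowered probe sets the brightest part had 88.3% below 0, the middle part 76.3% and the dimmest 56.8%. The 28 flu-lowered probe sets with a mean change of 4- to 8-fold had a median interaction of -0.68, against -0.31 for the 870 below 4-fold. Beyond that the 2 probe sets of 8- to 16-fold had a median of -0.09 and the 1 beyond 16-fold lay at 1.35, too few to extend the order. All shares in this paragraph are on the deposited scale.

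Among flu-raised probe sets paired with 1 gene, that with the highest moderated t (the interaction over its moderated SE) was AT5G66650. It encodes a protein of the organellar calcium uniporter family and had signals of 138 and 98.2 in WT, 1123 and 1062 in flu, 59.0 and 51.2 in tAPX and 1723 and 1674 in flu tAPX. Both tAPX arrays lay below WT and both flu tAPX arrays above flu, and the interaction was 1.53 ± 0.30. AT2G38240 and AT5G05600, both 2-oxoglutarate-dependent oxygenases of the group that hydroxylates jasmonate, gave 1.32 ± 0.28 and 0.84 ± 0.22. The signal of AT2G38240 was 174 and 182 in WT, 2193 and 2135 in flu, 114 and 85.5 in tAPX and 3653 and 2849 in flu tAPX, and that of AT5G05600 was 565 and 552, 6625 and 6371, 383 and 427 and 8912 and 8118 in the same order. In each of these genes the order of the lines was tAPX, WT, flu, flu tAPX with no overlap between neighbours.

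UGT76E12, a glycosyltransferase of small molecules, had an interaction of 2.49 ± 0.58 from responses of 3.56 ± 0.41 and 6.05 ± 0.41. Its tAPX signals were 32.1 and 4.40, against 149 and 95.4 in WT, so the dimmest values weigh in it, while flu (1981 and 1256) and flu tAPX (2529 and 1676) overlapped. AT3G51450 stood at 549 and 527 in WT, 7084 and 6866 in flu, 346 and 334 in tAPX and 8444 and 7767 in flu tAPX, a bright gene with an interaction of 0.85 ± 0.21. AT1G68620, of the carboxylesterase family, gave 1.22 ± 0.30, AT5G10830 gave 2.14 ± 0.58, and OBE1, a PHD-finger protein of meristems, gave 1.47 ± 0.36. The tAPX signals of AT5G10830 were dim, 61.9 and 14.0. OBE1 had responses of 1.02 ± 0.26 and 2.49 ± 0.26, with signals of 299 and 349 in WT and 105 and 172 in tAPX.

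**Figure D3:**
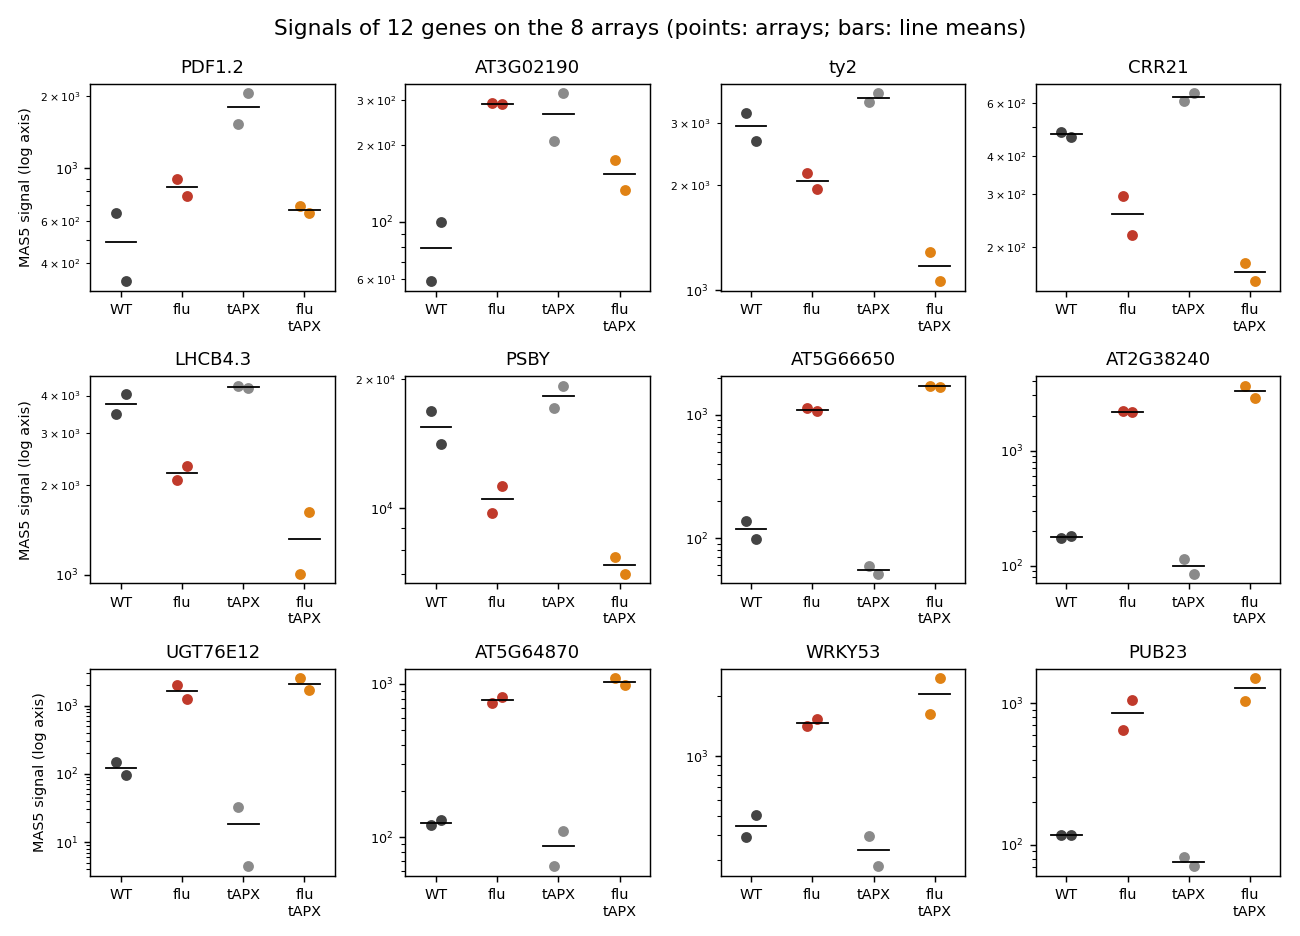
MAS5 signal on a logarithmic axis for 12 genes, with 1 point for each array and a bar at the mean of each line. AT5G66650 and AT2G38240 are lowest in tAPX and highest in flu tAPX, whereas PDF1.2 is highest in tAPX and ty2, CRR21 and PSBY are lowest in flu tAPX.

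The list of early singlet oxygen genes had 10 measured members of 20 listed, and all 10 rose in flu against WT and in flu tAPX against tAPX. Of all 14947 tested probe sets 1701 passed and were higher in the first comparison and 2243 in the second. The median response was 4.60 without and 4.81 with the transgene, and 8 of 10 interactions were above 0, with a median of 0.59 that turned to -0.10 with poly-A scaling (0.52 above all probe sets under either). None passed for the interaction, and 2 had an unadjusted p under 0.05. In the flu-raised class 77.4% were above 0 and 12.4% had such a p, beside 55.9% and 6.9% of all tested probe sets. AT5G64870, a flotillin-like gene, had signals of 119 and 129 in WT, 745 and 823 in flu, 64.4 and 109 in tAPX and 1089.8 and 979 in flu tAPX. Its flu tAPX arrays were both above its flu arrays, and the interaction was 0.87 ± 0.34. AR781 gave 0.69 ± 0.31, which became -0.0002 with poly-A scaling, and AT3G28580, an AAA-ATPase, gave 0.95 ± 0.49 from signals of 197 and 203 in flu against 216 and 289.6 in flu tAPX. AT3G01830, a calmodulin-like gene, lay on the other side at -0.80 ± 0.47, its flu tAPX signals of 3482 and 1619 enclosing its flu signals of 2976 and 2243. The 3 measured genes of the hydrogen peroxide list, which was written from general knowledge, all rose in both responses and had interactions of 0.62, 0.71 and 0.08 for UGT73B5, GSTU25 and AT5G43450, with a median that turned from 0.62 to -0.06 with poly-A scaling.

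Heat shock genes were represented by 5 of 25, all raised in both responses. Of all 14947 tested probe sets 1701 passed and were higher in flu against WT and 2243 in flu tAPX against tAPX. AT5G51440 encodes a small heat shock protein of mitochondria. It went from 175 and 138 in WT to 7373 and 6347 in flu and from 85.9 and 85.6 in tAPX to 8308 and 7129 in flu tAPX, an interaction of 0.92 ± 0.26. The flu and flu tAPX signals overlapped, and the tAPX signals were below those of WT. Hsp70-2, a cytosolic chaperone, and AT2G20560, a DnaJ-type co-chaperone, gave 0.62 ± 0.23 and 0.83 ± 0.32, the first turning to -0.06 with poly-A scaling. The cytosolic small heat shock genes AT1G53540 and AT2G29500 lay at -0.49 ± 0.89 and -0.25 ± 0.56, with SEs that exceed their values. The list median was 0.62, and -0.06 with poly-A scaling.

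Of the immune regulators, WRKY53, a transcription factor of defence and leaf senescence, had signals of 392 and 505 in WT, 1412 and 1529 in flu, 395 and 279.5 in tAPX and 1628 and 2467 in flu tAPX. Its interaction was 0.85 ± 0.35, beside 0.70 ± 0.51 for WRKY6 and -0.20 ± 0.67 for WRKY22. These 3 of 16 listed genes had a median of 0.70, or 0.02 with poly-A scaling. The WRKY family taken by symbol had 3 of 5 members above 0 and a median of 0.29, or -0.40 with poly-A scaling. In the family of U-box ubiquitin ligases, 6 of 8 members were above 0 with a median of 0.25, which was -0.43 with poly-A scaling. PUB23 and PUB24, known as brakes on immune signalling, gave 1.14 ± 0.39 and 0.85 ± 0.29, the latter from 1379 and 1284 in flu against 1588 and 2124 in flu tAPX. PUB22, their close relative, had 0.14 ± 0.72 and PUB19 -0.37 ± 0.39. Of 9 bZIP factors 8 were above 0 (median 0.33, and -0.35 with poly-A scaling). BZIP60, a sensor-activated factor of the unfolded protein response, stood at 6726 and 6254 in flu against 8272 and 8649 in flu tAPX, with an interaction of 0.48 ± 0.22. Detoxification genes had 5 of 8 above 0 and a median of 0.67, or -0.02 with poly-A scaling, led by UGT73B4 (0.89 ± 0.36).

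Among named genes PDF1.2 and AT3G02190 had the lowest moderated t. PDF1.2, a secreted antifungal peptide of the jasmonate and ethylene branch of defence, had signals of 650.4 and 336 in WT, 904 and 762 in flu, 1538 and 2065 in tAPX and 694 and 647 in flu tAPX. It was thus above WT in both flu arrays but below tAPX in both flu tAPX arrays, and the interaction was -2.20 ± 0.40. PDF1.2b gave -2.73 ± 0.61, from a probe set of the kind that can read related genes, so the pair may not be independent. All 4 measured defensins were below 0 (median -1.87), with LCR68 at -1.55 ± 0.74 and LCR69 at -1.28 ± 0.78. For LCR68 the arrays of a line spread widely, from 1403 and 554 in WT to 809.5 and 337 in flu tAPX. PDF1.2 and PDF1.2b were 2 of the 4 measured genes of the jasmonate list. The others lay near 0, OPCL1, which activates jasmonate precursors, at 0.20 ± 0.21 and JMT, which methylates jasmonate, at 0.25 ± 0.27.

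PDF1.2 was 1 of the probe sets whose lines crossed without overlap. In 74 probe sets (0.495%) both flu arrays were above both WT arrays and both flu tAPX arrays below both tAPX arrays, and in 212 (1.42%) the order was reversed in both. Read across the transgene, 416 probe sets (2.78%) were above WT in tAPX and below flu in flu tAPX, as PDF1.2 also was, and 674 (4.51%) were the reverse. With 2 arrays for each line such orders also arise at random, and none of these counts was tested. AT3G02190, which encodes a protein of the large ribosomal subunit, had 58.6 and 100.3 in WT, 292 and 288 in flu, 207 and 319 in tAPX and 175 and 133 in flu tAPX, an interaction of -2.42 ± 0.44. Another ribosomal protein gene, AT2G21580, gave -1.91 ± 0.40. Its signals were 813 and 541 in WT, 925 and 700.3 in flu, 1223 and 1461 in tAPX and 544 and 319.7 in flu tAPX, so the WT and flu arrays overlapped and flu tAPX was well below tAPX. AT5G19875 (-1.30 ± 0.31), AT5G19860 (-0.98 ± 0.23) and AT5G19030 (-1.35 ± 0.33) likewise had flu above WT and flu tAPX below tAPX.

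On the opposite side, AT5G24240, a relative of phosphatidylinositol 4-kinases, had the highest t of all tested probe sets. Its signals were 247 and 427 in WT but 16.4 and 7.32 in flu, 10.8 and 8.32 in tAPX and 33.8 and 59.8 in flu tAPX. The interaction of 4.90 ± 0.80 thus rests on WT being bright and 3 lines being dim, where the pseudocount sets the size of a log2 change. ATMAP65-6, a microtubule-associated protein, was measured at higher signals, 616 and 510.1 in WT, 319.9 and 318 in flu, 341 and 362 in tAPX and 481 and 429 in flu tAPX. WT was the highest of its lines and the other 3 were lower, with an interaction of 1.14 ± 0.27. AT3G60850 gave 1.44 ± 0.39 and AT3G28590 2.69 ± 0.67, the latter with dim tAPX signals of 58.2 and 18.1.

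Genes of plastid thiol redox control had interactions mostly below 0. In the plastid redox list 6 of 8 measured members were below 0, the median was -0.36, and 2 had an unadjusted p under 0.05. Of all tested probe sets 44.1% were below 0 and 6.9% had such a p, and of the flu-lowered class 73.8% and 19.6%. ty2, a plastid thioredoxin of the y type that reduces peroxiredoxin Q, had signals of 3217 and 2676 in WT, 2160.2 and 1951 in flu, 3439 and 3658 in tAPX and 1289.5 and 1060.1 in flu tAPX. The flu tAPX arrays were the lowest of all, and the interaction was -1.08 ± 0.24. TRXF2, the f-type thioredoxin that switches on enzymes of carbon fixation, gave -0.59 ± 0.23 from responses of -0.60 ± 0.16 and -1.19 ± 0.16. ATHM2, of the m type, gave -0.41 ± 0.21, the reductase NTRC -0.22 ± 0.31, and TY1, the other y-type thioredoxin, 0.11 ± 0.51.

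Photosynthesis genes had 6 of 7 measured members of 46 listed below 0, with a median of -0.19 and 3 at an unadjusted p under 0.05. Of all tested probe sets 44.1% were below 0 and 6.9% had such a p. In the flu-lowered class the shares were 73.8% and 19.6%. PSBY, a small subunit of photosystem II, had signals of 16830.5 and 14122 in WT, 9759 and 11269 in flu, 17109 and 19302 in tAPX and 7697 and 7024 in flu tAPX. All flu tAPX values were below those of flu, and the interaction was -0.75 ± 0.22. LHCB4.3, an antenna protein, gave -0.96 ± 0.31, with 2079 and 2316 in flu against 1006 and 1627 in flu tAPX. PSAE-1, a stromal subunit of photosystem I, gave -0.64 ± 0.27, whereas the related antenna genes LHCB4.1 and LHCB4.2 lay at -0.18 ± 0.27 and -0.19 ± 0.22. RCA, the activase of Rubisco, had responses of -0.10 ± 0.15 and -0.09 ± 0.15 and an interaction of 0.01 ± 0.21. The 4 photosystem subunits taken by symbol, PSBY, PSAE-1, PSAN and PSBW, were all below 0 with a median of -0.52.

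Assembly factors of the NDH complex and photosystem II were divided. CRR42, needed for assembly of the NDH complex, gave -2.83 ± 0.75 from scattered signals of 363 and 88.9 in WT, 173 and 99.97 in flu, 410.2 and 488 in tAPX and 42.8 and 23.8 in flu tAPX. CRR21, which edits an ndh transcript, had steadier signals of 482 and 462 in WT, 294 and 219 in flu, 612 and 648 in tAPX and 177 and 153 in flu tAPX, an interaction of -0.98 ± 0.30. The order of its lines was flu tAPX, flu, WT, tAPX with no overlap. The photosystem II factors LPA2 and LPA19 gave -0.72 ± 0.26 and -0.99 ± 0.39, while the other 5 members lay between -0.05 and 0.31, and the family median was -0.05.

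Other flu-lowered genes with low t were AT1G14345, AT2G21185 and AT3G44450. AT1G14345 had signals of 3513 and 3245 in WT, 1384 and 1536 in flu, 4233 and 4711 in tAPX and 1085 and 727 in flu tAPX, an interaction of -1.11 ± 0.28. The others gave -1.50 ± 0.36 and -1.91 ± 0.49. Only 9 flu-lowered probe sets had an unadjusted p under 0.05 above 0. AT3G22810 (2.19 ± 0.69), AT4G27240 (1.65 ± 0.57) and AT2G20670 (0.53 ± 0.23) were among them. In flu AT3G22810 was dim at 13.0 and 13.4, and AT4G27240 at 25.7 and 77.7, so the pseudocount weighs in their values. AT2G20670 was the brightest of the 3, at 1755 and 1839 in WT, 513 and 605 in flu, 1652 and 1654 in tAPX and 724 and 768 in flu tAPX, and its value turned to -0.16 with poly-A scaling.

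Of the flu-raised probe sets 367 had interactions below 0 on the deposited scale, 13 of them at an unadjusted p under 0.05, and none passed. AT3G50900 rose by 4.50 ± 0.26 in flu and 3.40 ± 0.26 in flu tAPX, an interaction of -1.10 ± 0.37. Its WT signals were 25.4 and 31.5 and its tAPX signals 76.2 and 83.0, while flu (806 and 1208) and flu tAPX (1139 and 868) overlapped. AT1G69890 (-0.88 ± 0.32) and AT4G33905 (-1.31 ± 0.47) were likewise higher in tAPX than in WT, with 126 and 142 against 29.3 and 52.7 for AT1G69890. AT1G19380 gave -1.03 ± 0.41 and AT1G21520 -1.09 ± 0.42. In both the flu tAPX arrays differed from each other by more than the flu arrays did, with 3503 and 1779 for AT1G19380 and 815 and 389.9 for AT1G21520.

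**Figure D4:**
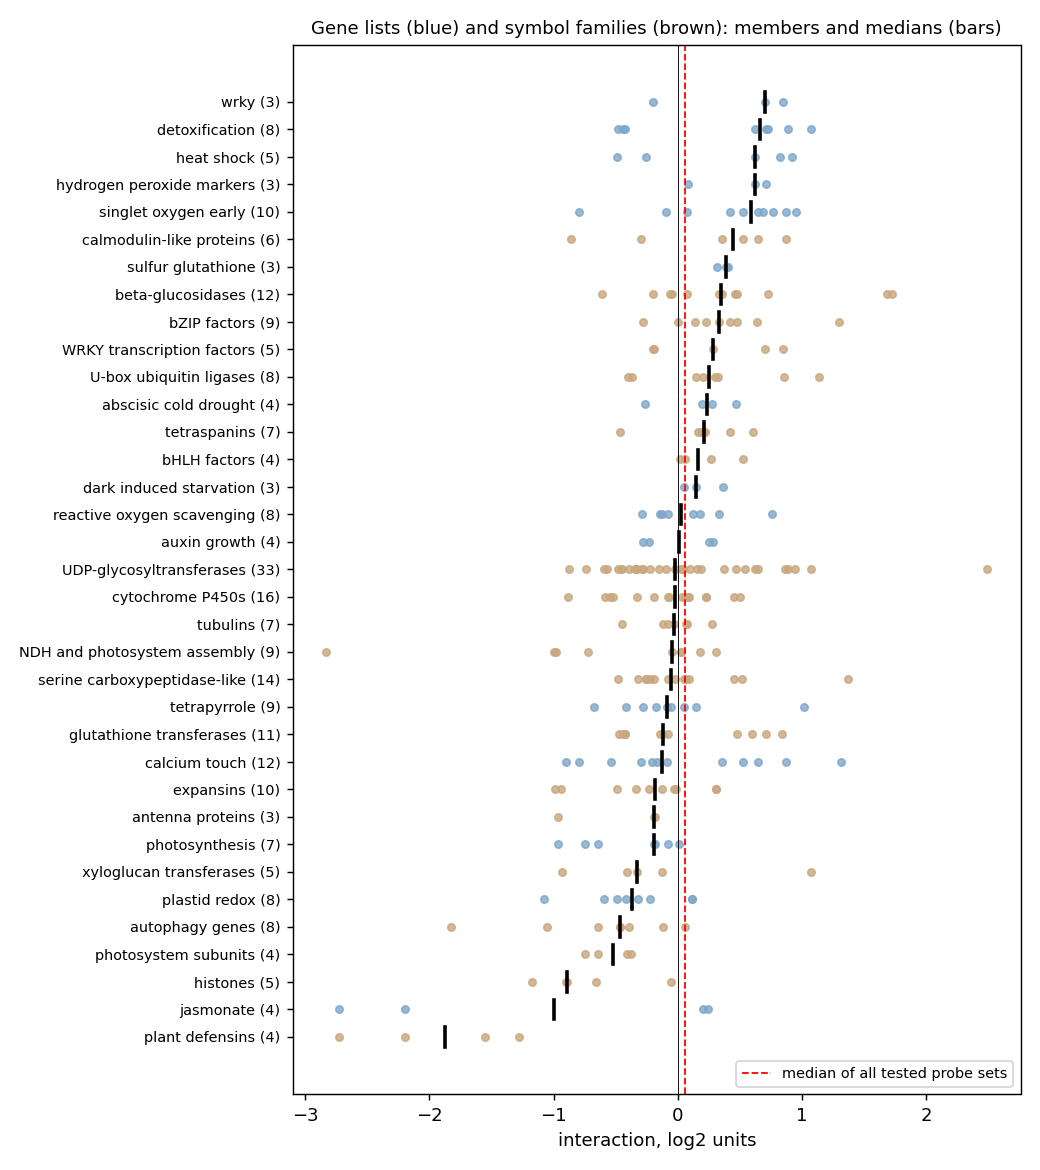
Interaction in log2 units of each measured member (points) of the gene lists (blue points) and families taken by symbol (brown points) with at least 3 measured members, with the number of members in brackets, the median of each set (black bar) and the median of all tested probe sets (dashed line at 0.06). Defensins have the lowest median, -1.87, and the WRKY list of 3 measured members the highest, 0.70. The WRKY family of 5 members taken by symbol has a median of 0.29. With poly-A scaling all points move down by 0.69.

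Of 8 autophagy genes, 7 were below 0, with a median of -0.46. ATG8E, which coats the autophagosome membrane, had signals of 331 and 241 in WT, 517 and 482 in flu, 510.2 and 535 in tAPX and 569.9 and 328 in flu tAPX. Both WT arrays were below those of flu and tAPX, the flu tAPX arrays spread from the WT range to above the others, and the interaction was -1.05 ± 0.38. ATG8G gave -1.83 ± 0.69 from dim signals and ATG3, which conjugates ATG8 to lipid, was the member above 0 (0.06 ± 0.25). The histone H2B genes HTB1, HTB2, HTB11 and HTB4 had -0.90 ± 0.28, -1.17 ± 0.38, -0.89 ± 0.47 and -0.66 ± 0.37. Related H2B genes can share probes, and the family as taken by symbol also held HISN5B, an enzyme of histidine synthesis, at -0.05 ± 0.25. HTB1 stood at 583 and 603 in WT, 471 and 353 in flu, 809.6 and 793 in tAPX and 308 and 269.9 in flu tAPX.

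Reactive oxygen scavenging, the pathway of the transgene product, had 8 measured members of 39 and a median interaction of 0.02, close to that of all probe sets. Apart from TAPX, the members lay between -0.29 and 0.34. ATMDAR2, which recycles oxidised ascorbate, was raised in both responses, 2.51 ± 0.19 and 2.85 ± 0.19, and gave 0.34 ± 0.27. The glutathione reductases GR1 and GR gave 0.18 ± 0.25 and -0.08 ± 0.39, and the plastid peroxiredoxins AT3G11630 and AT3G52960 -0.29 ± 0.22 and -0.14 ± 0.22. In tetrapyrrole synthesis, the pathway that FLU controls, 6 of 9 members were below 0 (median -0.08). HEMA2, an isoform of the first committed enzyme, stood apart at 1.01 ± 0.41, with 304 and 159.6 in WT, 1169 and 1329 in flu, 192 and 126 in tAPX and 1724 and 1954 in flu tAPX. PORB, which reduces protochlorophyllide in the light, had responses of -1.57 ± 0.19 and -1.43 ± 0.19 and an interaction of 0.15 ± 0.27.

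Several other sets were centred near 0. Calcium and touch genes had 5 of 12 above 0 (median -0.13), glutathione transferases 4 of 11 (-0.11), cytochrome P450 genes 8 of 16 (-0.02), UDP-glycosyltransferases 16 of 33 (-0.02) and serine carboxypeptidase-like genes 6 of 14 (-0.05). Of 68 plastid-encoded genes 25 were above 0, the median was -0.05, and 1 had an unadjusted p under 0.05. Few listed markers of other cell types had a tested probe set paired with 1 gene. These were 1 of 12 guard cell, 1 of 13 epidermis and trichome and 1 of 14 vascular genes. None of the root or of the pollen and seed genes had one. The others were not read here, which does not mean that they are absent from the leaf. The guard cell factor FMA had signals between 238 and 380.5 on the 8 arrays and an interaction of 0.27 ± 0.34, and the trichome factor TRY -0.33 ± 0.41. AT2G37130, the 1 measured gene of the vascular list, had an interaction of 1.17 ± 0.46. Its signals were 169 and 178 in WT, 78.9 and 50.3 in flu, 144 and 128 in tAPX and 108 and 149 in flu tAPX. Whether this gene reads vascular tissue was not tested. TRY was lower in both flu lines than in WT and tAPX, and its part in the results was not tested. With so few markers a change in the share of cell types cannot be told apart from a change of RNA per cell.

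**Figure D5:**
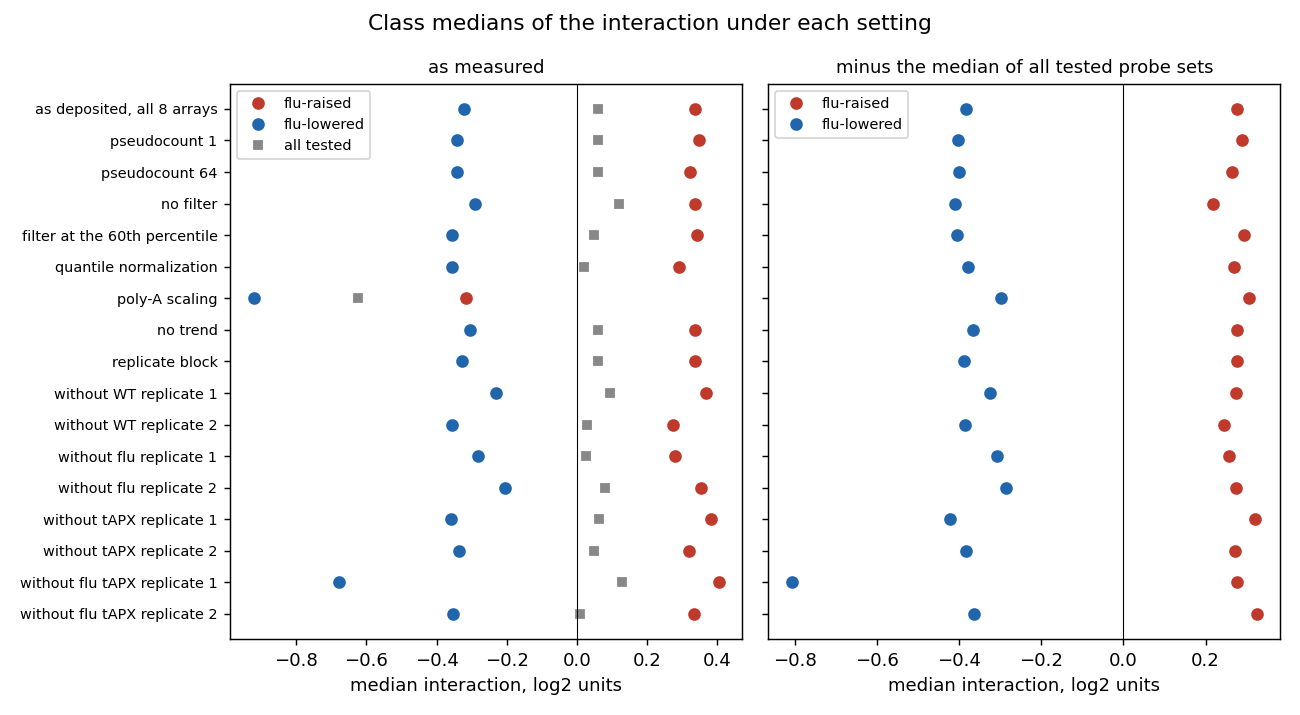
Median interaction in log2 units of flu-raised (red), flu-lowered (blue) and all tested probe sets (grey squares) under each processing setting, as measured on the left and after subtracting the median of all tested probe sets on the right. Poly-A scaling moves all 3 medians down, to -0.32, -0.92 and -0.62, and in the right panel the classes lie on opposite sides of 0 under every setting shown. The classes were picked again under each setting.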

How the data were processed

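Leaf RNA was hybridised to Affymetrix ATH1 arrays, 2 for each of 4 lines. Per the submitters' processing notes, the deposited values are MAS5 signals, linear intensities, and the version of MAS5 was not given in the sources used here. After trimming 2% at each end, the deposited signals average between 500.045 and 500.048 on every array, so each array is scaled on its own mean. The number of arrays limits the precision.

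Lines and replicate numbers came from the titles. Signals were turned into log2(signal + 16). After removal of 64 control probe sets, those above the 40th percentile of their array on 2 or more arrays were tested. limma 3.58.1 (R 4.3.3) fitted the line means to all 8 arrays at once. Its variances followed the mean signal; 4 degrees of freedom came from the arrays and 5.94 (median) from the prior. The contrast was tested on simulated arrays before use. P-values are two-sided, with Benjamini-Hochberg adjustment over all 14947 probe sets and a threshold of 0.05. The platform annotation named the genes, and symbols were brought to TAIR10.1 by gene identifier. Of all probe sets 13513 had 1 gene, 503 several and 8794 none, and 8140 tested probe sets had 1. Only those with 1 gene were used for names. No coordinates are printed, because the array's build was not given in the sources used here. Lists use the brightest probe set of a gene.

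Named genes are any past the adjusted threshold (0), the 12 highest and 12 lowest in moderated t of the interaction, the 8 highest and 8 lowest flu-raised, the 4 highest and 4 lowest flu-lowered, up to 3 members of each list or family with the smallest p, TAPX and SAPX. Other list members named were chosen after their values were seen. The members, lists and tests were chosen with earlier results of these data known. Alternatives changed the pseudocount, filter, scaling, variance trend and replicate block, or left out each array.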

Additional observations from a re-analysis of the deposited data

Results flagged for a closer look

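The array's control probe set U12639, which was outside the tested measurement, gave a signal far above its level on the arrays without the transgene. Its lowest signal on the 4 arrays of tAPX and flu tAPX was 4514.3, and its highest on the 4 arrays of WT and flu was 49.7, a ratio of 90.8. By line the signals were 10.5 and 49.7 in WT, 29.1 and 31.2 in flu, 4514 and 5269.5 in tAPX and 6069 and 7712 in flu tAPX, and both flu tAPX arrays were above both tAPX arrays. The mean log2 signal of the poly-A controls was also higher, 9.02 and 8.71 in flu tAPX against 8.26 and 8.24 in tAPX. For the hybridisation controls it was 11.25 and 11.38 against 10.93 and 10.81. Whether the U12639 difference goes beyond that of these controls was not tested. The sources used here do not say what this probe set reads.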

How the results depend on the processing

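The count of probe sets passing for the interaction stayed at 0 under both other pseudocounts, no filter, a filter at the 60th percentile, quantile normalization, variances with no trend and the replicate block, whose lowest adjusted p was 0.21. It was 461, 1 of them above 0, with poly-A scaling. Leaving out 1 array gave 0 to 185. The 185, of which 6 were above 0, came without flu tAPX replicate 1, a fit that rests on a single flu tAPX array. The flu-raised median turned to -0.317 with poly-A scaling and otherwise lay between 0.2745 and 0.4066 over the arrays left out. The flu-lowered median was -0.9222 with poly-A scaling and -0.6781 to -0.2057 over the arrays left out. The classes were picked again under each setting, and with an array left out the picking is no longer uncorrelated with the interaction. Probe sets passing in flu tAPX against tAPX numbered 9038 with poly-A scaling, of which 14.6% were higher against 44.7% as deposited, and 2825 to 5364 over the arrays left out, the lowest without tAPX replicate 2. In flu against WT the numbers were 1852 to 4663 over the arrays left out, the lowest without WT replicate 2, and 65.6% were higher with poly-A scaling against 47.6%. The replicate block moved the class medians to 0.34 and -0.33. The labels do not say whether a number marks the same runs in each line. The correlations between lines of the difference of replicate 2 from 1 lay between -0.08 and 0.35, the highest between flu and flu tAPX. These values do not settle whether equal numbers share runs, and the main fit treats the arrays as unpaired. Of 73 named probe sets followed through the settings, 5 changed sign with poly-A scaling: SAPX (-0.559), AR781 (-0.0002), AT2G20670 (-0.1565), SCPL49 (-0.1674) and Hsp70-2 (-0.0609). Other genes named above were not among the 73, and those with values above 0 but under 0.69, such as UGT73B5 and BZIP60, also turn below 0 there. SAPX also changed sign without flu tAPX replicate 2 (-0.0669), its highest value with an array left out being 0.3193. With poly-A scaling 32 of the 73 passed, beside 461 of all 14947 tested probe sets. The 73 were picked largely by the t or p of their interaction on these same arrays, so their share supports nothing by itself. Poly-A scaling shifts every interaction by the same amount by construction, and other causes were not tested.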

Other observations

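Cell wall and glucoside genes were not described above. Of 12 beta-glucosidases, 8 had interactions above 0 (median 0.35, and -0.34 with poly-A scaling), and none passed the test. BGLU31 had signals of 98.5 and 66.2 in WT, 88.9 and 70.5 in flu, 28.5 and 56.0 in tAPX and 142 and 186 in flu tAPX, an interaction of 1.69 ± 0.59. Both flu tAPX arrays were the highest and both tAPX arrays the lowest. Of 10 expansins, which loosen the cell wall, 8 were below 0 (median -0.18), with EXLB1 at -0.99 ± 0.63. Of 5 xyloglucan transferases 4 were below 0 (median -0.32), and XTH18, which was flu-raised, lay on the other side at 1.07 ± 0.66.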
